A study of Rattus norvegicus with 2 samples.

Results

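The Polycomb mark H3K27me3 (histone H3 trimethylated at lysine 27) was mapped by ChIP-seq in whole sciatic nerve of male Sprague Dawley rats, and the mark is described here over 3 stretches of chromosomes 3, 7 and 10 that are presumed to be the Hox D, Hox C and Hox B gene clusters. The members are the regions of the authors' deposited list that lie fully inside 3 windows. These run from 67900000 to 68400000 on chromosome 3, from 142000000 to 142600000 on chromosome 7 and from 83700000 to 84500000 on chromosome 10. They number 650 of 90174 listed regions, with 146 in the chromosome 3 window, 188 in the chromosome 7 window and 316 in the chromosome 10 window. The windows were chosen by position after the widths and tag numbers of the list were known, so a wide or dense region inside them is a description and not a finding, and no test was made on it.

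The series has 2 ChIP libraries in 1 group, both made with the same H3K27me3 antibody, with no untreated or mutant group to compare. The nerve contains Schwann cells, fibroblasts, perineurial, endothelial and immune cells, and a value from whole nerve does not tell a mark in all cells from one in a fraction of them. The list pools tags into 1 combined ChIP set of 46.8 M tags and 1 combined input set of 41.2 M tags. The input total was derived from a pair of scaled columns, and which libraries each set holds is not stated. The names of both sets in the file header carry the word Sham, which the labels do not use. No value exists per library. All intervals are 95% exact intervals and cover counting error only, for PCR duplicates and neighbouring regions are not independent draws.

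Hox genes code for homeodomain transcription factors that give cells their position along the body axis. In mammals they lie in clusters, and their order along the chromosome follows the order of the body parts in which they are active. Polycomb repressive complex 2 writes H3K27me3 over the silent members of a cluster, and active members carry less of it, so that a cluster can be marked over one part and bare over another. CpG-rich sequence is a known landing place for Polycomb proteins.

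That these windows hold Hox genes is presumed from their large-scale positions. No source used here names the build of the file's positions. The RefSeq gene table, which is of the GRCr8 build, places 9 Hoxd genes on chromosome 3, 9 Hoxc genes on chromosome 7 and 10 Hoxb genes on chromosome 10, the chromosomes of the windows. Its positions cannot be laid over those of the file. In that table the order along chromosome 3 is Lnpk and Evx2, then Hoxd13, Hoxd12, Hoxd11, Hoxd10, Hoxd9, Hoxd8, Hoxd4, Hoxd3 and Hoxd1, then Mtx2 and Hnrnpa3. Evx2 codes for a further homeodomain factor and Mtx2 for a protein of the mitochondrial outer membrane. Along chromosome 7 the order is Calcoco1 and Tbcal1, then Hoxc13, Hoxc12, Hoxc11, Hoxc10, Hoxc9, Hoxc8, Hoxc6, Hoxc5 and Hoxc4, then Smug1, a uracil-DNA glycosylase, and Cbx5, which codes for a heterochromatin protein. Along chromosome 10 it is Calcoco2 and Ttll6, then Hoxb13, Hoxb9, Hoxb8, Hoxb7, Hoxb6, Hoxb5, Hoxb4, Hoxb3, Hoxb2 and Hoxb1, then Skap1, an adaptor protein of T cells, and Snx11. Whether the file runs in the same direction was not tested, so no region below is given a gene name.

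To show what sequence lies before genes at the ends of the clusters, the 250 bases before the annotated start are printed for the outermost Hox genes that the RefSeq promoter table holds, with each CpG in capitals. All are on the plus strand of GRCr8, at chr3:79977827-79978076 for Hoxd13, chr3:80072791-80073040 for Hoxd1, chr7:136048809-136049058 for Hoxc4 and chr10:81827665-81827914 for Hoxb1.
Hoxd13: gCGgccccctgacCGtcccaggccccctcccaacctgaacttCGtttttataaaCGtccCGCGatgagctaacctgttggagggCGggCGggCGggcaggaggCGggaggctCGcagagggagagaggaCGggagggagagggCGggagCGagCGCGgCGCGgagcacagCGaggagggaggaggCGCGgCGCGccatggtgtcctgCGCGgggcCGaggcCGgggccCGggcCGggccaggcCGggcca
Hoxd1: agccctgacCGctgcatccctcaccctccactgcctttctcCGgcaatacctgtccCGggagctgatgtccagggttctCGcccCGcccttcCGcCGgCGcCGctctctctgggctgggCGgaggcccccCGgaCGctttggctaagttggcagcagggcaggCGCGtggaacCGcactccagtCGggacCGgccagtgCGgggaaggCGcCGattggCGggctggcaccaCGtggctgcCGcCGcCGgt
Hoxc4: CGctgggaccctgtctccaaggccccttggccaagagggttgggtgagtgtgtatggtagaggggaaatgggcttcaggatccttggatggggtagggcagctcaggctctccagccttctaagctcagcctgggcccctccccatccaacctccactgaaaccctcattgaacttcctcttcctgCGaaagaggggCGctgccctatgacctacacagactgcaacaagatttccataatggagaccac
Hoxb1: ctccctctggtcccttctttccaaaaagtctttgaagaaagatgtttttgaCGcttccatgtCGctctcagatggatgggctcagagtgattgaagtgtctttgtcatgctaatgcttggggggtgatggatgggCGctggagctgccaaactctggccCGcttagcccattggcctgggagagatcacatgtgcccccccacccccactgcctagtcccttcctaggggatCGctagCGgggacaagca
The Hoxd13 stretch holds 30 CpGs at 74.8% G and C, and the Hoxd1 stretch holds 25 at 71.6%. The Hoxc4 stretch holds 3 CpGs and the Hoxb1 stretch holds 6. Over the full 300 bases of an entry, the 9 Hoxd promoters held 12 to 49 CpGs with a median of 25, and the median over 33469 promoters of the table was 7. All 9 Hoxd promoters held 10 or more CpGs, as did 41.5% of all promoters. The table matched 1 of the 9 Hoxc genes and 1 of the 10 Hoxb genes, Hoxc4 with 6 CpGs and Hoxb1 with 9. Both single entries lie below 10, and nothing is said of the other Hoxc and Hoxb promoters. Whether any of these stretches lies under a listed region was not tested.

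The share of the mark in the 3 windows was above their share of regions. The 650 members are 0.721% of the list, cover 660.4 kb, or 1.82% of its covered length, and hold 2.34% of its ChIP tags. The chromosome 3 window was covered over 132.4 kb, or 26.5% of its span, with 31699 ChIP tags and 1932 input tags. The chromosome 7 window was covered over 161.7 kb, or 26.9%, with 34878 ChIP tags and 2489 input tags. Chromosome 10 had the fullest window, with 366.3 kb or 45.8% covered, 70423 ChIP tags and 5551 input tags.

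Scaled to the 2 totals, the pooled ChIP to input ratio was highest on chromosome 3 and lowest on chromosome 10. It was 14.4 (13.8 to 15.1) in the chromosome 3 window, 12.3 (11.8 to 12.8) in the chromosome 7 window and 11.2 (10.9 to 11.5) in the chromosome 10 window. The 3 intervals do not overlap, but they cover counting error only. All other listed regions pooled gave 9.78 (9.75 to 9.81). Regions of 2 kb or wider held 77.9% of the ChIP tags of the members and 45.9% of those elsewhere. Since the windows were chosen with tag numbers known, nothing is read from the order of the windows or from the difference to the list. Input density differed little, with 14.6, 15.4 and 15.2 input tags per kb of region in the 3 windows and 14.4 elsewhere, while ChIP density was 239.4, 215.7 and 192.3 tags per kb against 160.6 elsewhere.

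The members included more wide regions than the list as a whole. Regions of 2 kb or more numbered 14, 13 and 46 in the chromosome 3, 7 and 10 windows, together 73 of 650 or 11.2%, beside 2.91% of the whole list. Regions of 5 kb or more numbered 27, or 4.15%, beside 0.781% of the list. Regions of 10 kb or more numbered 11, or 1.69%, beside 0.24% of the list. Since wide regions drew attention to these windows, nothing is read from these shares.

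The ratios of narrow members lay within counting error of those of narrow regions elsewhere. Both had passed the same limits of the caller, 14 tags and a fold of 4 over input, so nothing is read from the likeness. The 201 members of 150 bp or less, the width that the caller gives to a single peak, had a pooled ratio of 8.34 (7.53 to 9.27), and the 50623 others had 8.27 (8.22 to 8.32). Members between that width and 2 kb numbered 376 and had a ratio of 8.04 (7.74 to 8.36), beside 8.08 (8.04 to 8.11) elsewhere. At 2 to 10 kb the 62 members had 11.04 (10.7 to 11.4) and the 2347 others 11.4 (11.4 to 11.5), and these intervals overlap too. At 10 kb or more the 11 members reached 18.96 (18.2 to 19.7), and the 205 others 16.7 (16.5 to 16.9). Region by region the 2 sets overlapped, with folds in the authors' list of 10.25 to 30.03 (median 20.04) for the members and 6.51 to 28.18 (median 16.98) for the others, and nothing is read from the difference. The median fold over input given by the authors' caller was 8.21 for the members and 8.21 for the list, and 327 members, or 50.3%, lay at or above the median of the list.

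**Figure D1:**
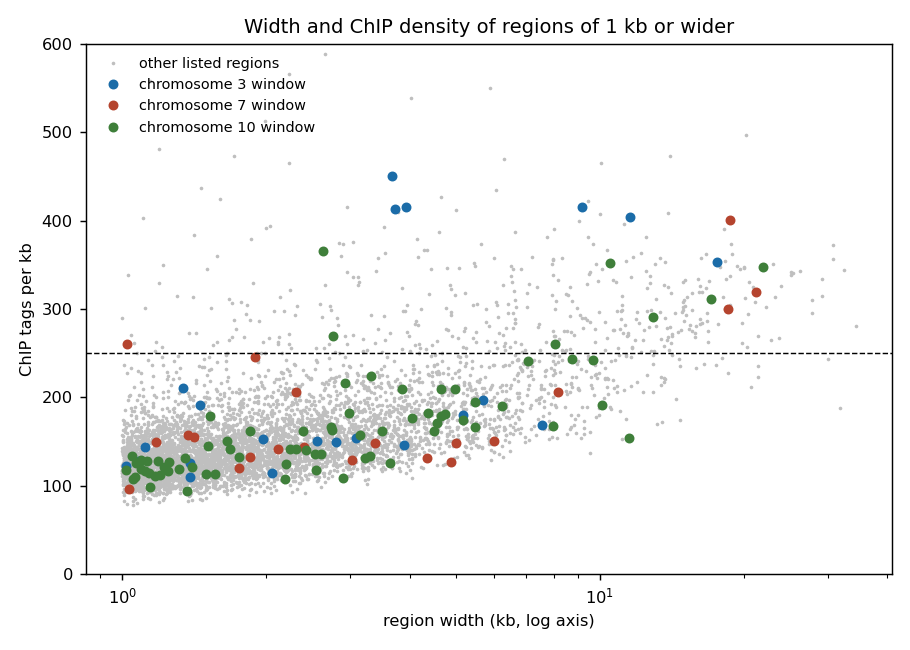
ChIP tags per kb against region width (log axis) for the 118 members of 1 kb or wider, coloured by window, and 5619 other listed regions in grey; 6 more above 600 tags per kb are not drawn. The dashed line marks 250 tags per kb, and the 3 chromosome 3 members at 3.68, 3.72 and 3.92 kb that lie above 400 are at 450.3, 413.1 and 415.0.

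Within each window the mark was uneven, with a few very dense stretches beside a wider field of moderate density. Dense regions were defined as those of 2 kb or wider with at least 250 ChIP tags per kb, a limit set after the values were seen. They numbered 6 of 14 in the chromosome 3 window, 3 of 13 in the chromosome 7 window and 7 of 46 in the chromosome 10 window, together 16 of 73, beside 14.8% of the regions of 2 kb or wider in the whole list. Dense regions 10 kb or less apart were joined into blocks. The windows held 6 of the 276 blocks of the list, and 4 of these 6 spanned over 40 kb, a length reached by 11 blocks in all. By span these 4 ranked 1, 5, 6 and 9.

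With joining at 10 kb the longest block of the list lay in the chromosome 7 window. With joining at 20 kb it ranked 3, after a chromosome 2 block of 88.0 kb and a block of the chromosome 3 window of 66.7 kb. The chromosome 7 block spanned 59.9 kb from 142297844 to 142357728 in 3 regions and was covered over 97.6% of its length, with a ratio of 17.9 (16.8 to 19.1). The chromosome 3 block spanned 45.3 kb from 68044764 to 68090105, with a ratio of 24.9 (22.9 to 27.1) at 386.9 ChIP tags per kb. The chromosome 10 window held a pair of blocks of over 40 kb. The lower, from 83808427 to 83850107, spanned 41.7 kb at 18.6 (17.2 to 20.2), and the upper spanned 44.1 kb, from 83905836 to 83949957, at 19.6 (17.97 to 21.3). The interval of the chromosome 3 block lies above those of the other 3, whose intervals overlap. Of the 7 blocks of this length elsewhere, the ratio ran from 14.03 to 19.97 with a median of 16.0, and ChIP density ran from 263.4 to 415.03 tags per kb. The chromosome 3 block thus had the highest ratio of the 11, but not the highest density.

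**Figure D2:**
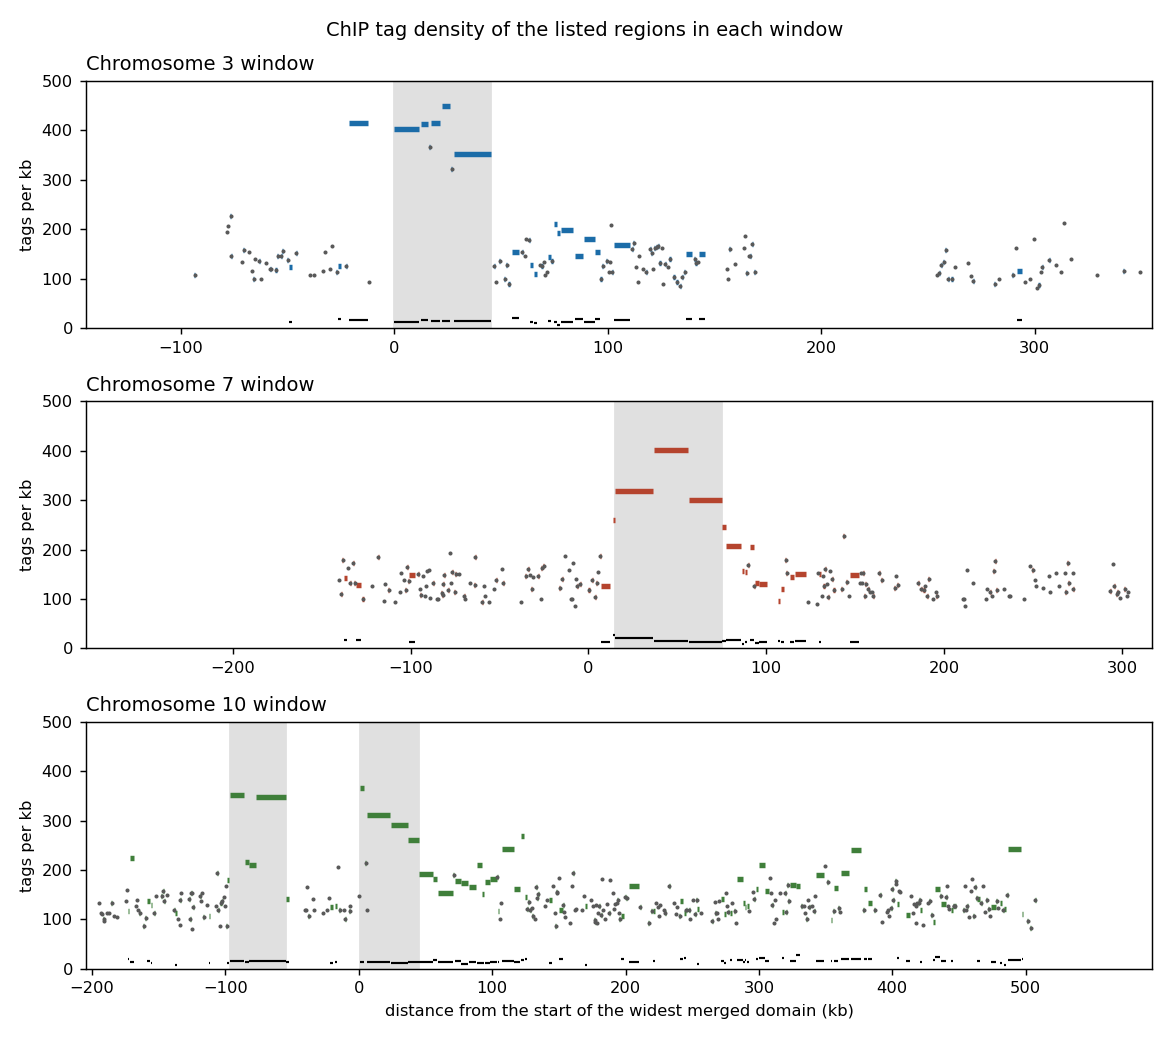
ChIP tags per kb of every member along the 3 windows, as bars over each region and grey dots for regions under 1 kb, with input tags per kb of regions of 1 kb or wider as thin black bars and the 4 blocks of over 40 kb shaded. Distance is in kb from the start of each window's widest merged domain. Each shaded block holds regions of over 300 ChIP tags per kb, while input of the members of 2 kb or wider stays between 10.4 and 27.4 tags per kb.

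Blocks differed from the rest of their window in ChIP and far less in input. In the chromosome 3 window ChIP density inside the blocks, short ones included, was 2.71 times (2.65 to 2.77) that of the other 138 members, and input density was 0.930 times (0.847 to 1.02). In the chromosome 7 window the ratio was 2.33 (2.28 to 2.38) for ChIP and 1.13 (1.05 to 1.23) for input. In the chromosome 10 window it was 1.95 (1.92 to 1.98) for ChIP and 0.933 (0.875 to 0.995) for input. Since blocks are made of dense regions, that ChIP is higher in them follows from the definition. The input values do not follow from it, but they are no independent check. Every listed region had to reach a fold of 4 over input, which limits input more where ChIP is sparse. Outside the blocks the members of the 3 windows had pooled ratios of 8.48 (8.00 to 9.004), 8.73 (8.28 to 9.21) and 8.998 (8.72 to 9.28) on chromosomes 3, 7 and 10, with overlapping intervals.

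Among regions of 2 kb or wider, density in the presumed Hox D window stepped down sharply at position 68090105. Below it, 6 consecutive regions of 2 kb or wider held 415.9, 403.7, 413.1, 415.0, 450.3 and 353.2 ChIP tags per kb. The first of these, from 68023361 to 68032542, stands outside the joined block. It is followed by 1 narrow region of 14 tags and then by 11.7 kb with no listed region. Density changed little across that hole, by a factor of 0.971 (0.930 to 1.01). Above 68090105 the 8 remaining regions of 2 kb or wider held 114.4 to 197.4 tags per kb. The ranges of these wide regions below and above thus do not overlap. Members below 68023361 were all narrower than 2 kb. The widest of them, from 68018335 to 68019722, held 126.2 tags per kb, so the dense stretch had sparser members on both sides.

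The step itself lay between the widest region of the window and the next wide one. The region of 17.6 kb from 68072538 to 68090105 held 353.2 tags per kb, with a ratio of 21.8 (19.2 to 24.9). The next region of 2 kb or wider, from 68099935 to 68103020, held 154.0, which is 0.436 times as much (0.396 to 0.479), while its input density was 1.37 times as high (1.01 to 1.82). The 9.83 kb between them held 6 short regions of 150 to 723 bp with 89.6 to 134.9 ChIP tags per kb. In the 20 kb below the step regions covered 93.3% of the sequence, and in the 20 kb above it they covered 42.1%.

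The densest member of 2 kb or wider was the region from 68067059 to 68070739, with 1657 ChIP tags over 55 input tags, or 450.3 tags per kb (428.9 to 472.5). The sparsest of the chromosome 3 window, from 68336712 to 68338767, held 235 ChIP tags over 31 input tags, or 114.4 per kb (100.2 to 129.9). The first held 3.94 times the ChIP density of the second (3.43 to 4.53), and the input density of the pair differed by a factor of 0.991 (0.627 to 1.59). The pair was picked for its difference. The highest fold of all members belonged to a short region between dense ones, from 68071332 to 68071793. It held 148 ChIP tags over a single input tag, so its fold of 130.2 has an interval from 23.0 upward and ranks nothing.

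Above the step the presumed Hox D window carried a long run of moderate density. When regions at most 3 kb apart were merged, the widest domain reached from 68044764 to 68190203 and thus held both the block and the sparser regions above it. Its last region, from 68187651 to 68190203, held 150.5 tags per kb. The widest region of this part, from 68147819 to 68155375, held 168.7 tags per kb, with a ratio of 9.04 (7.52 to 10.96), and that from 68122785 to 68128474 held 197.4 at 13.3 (10.5 to 17.1). The longest gap between neighbouring members of any window followed, 85.5 kb from 68213597 to 68299100. The next longest gaps between members of this window were 14.96 kb from 67951211 to 67966175 and 12.2 kb from 68374162 to 68386355.

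Among regions of 2 kb or wider, the presumed Hox C window had a single peak of density that fell off in steps on its upper side. At 126.4 tags per kb, the region from 142290072 to 142294963 was the lowest of the 13 regions of 2 kb or wider. After a short region of 1.02 kb with 260.3, the widest region of the window, 21.2 kb from 142297844 to 142319063, held 319.3. That is 2.53 times the density of the first (2.33 to 2.75), with input 1.61 times as high (1.23 to 2.14), and the ratio rose from 8.77 (6.74 to 11.6) to 13.8 (12.5 to 15.2). This wide region had 20.4 input tags per kb, the highest of the 13.

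The centre of the block, 18.7 kb from 142319920 to 142338609, held 400.9 ChIP tags per kb at a ratio of 22.9 (20.3 to 25.8). The next 18.5 kb, from 142339204 to 142357728, held 300.04 at 19.4 (17.1 to 22.1). Density then fell to 245.5 in a region of 1.90 kb and to 206.6 in the region from 142360245 to 142368402, 0.688 times that of the last region of the block (0.652 to 0.727), with input 1.25 times as high (1.01 to 1.55). Narrower regions of 1.37, 1.41 and 0.786 kb followed, with 157.5, 155.6 and 167.9 tags per kb. Density was higher again in the region from 142373483 to 142375796, which held 205.8. The last region of the widest merged domain, from 142378785 to 142383138, held 131.2, 0.637 times as much (0.563 to 0.721). From there to the upper end of the window the 3 regions of 2 kb or wider held 144.1, 151.0 and 148.6 tags per kb, the middle one of them, from 142398947 to 142404941, spanning 5.99 kb.

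The 2 sides of this window differed in coverage. In the 20 kb below the block regions covered 49.6% of the sequence, and in the 20 kb above it they covered 85.6%. ChIP tags in listed regions amounted to 71.2 per kb of sequence below and 167.5 above. No region was listed in the 379.3 kb before the first member, which starts at 142142491. The longest gaps among members lay near the upper end, 20.3 kb from 142555697 to 142576019, 14.6 kb from 142478642 to 142493281 and 10.9 kb from 142457184 to 142468088.

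At the main settings the presumed Hox B window held a pair of blocks of over 40 kb with a thinly marked stretch between them. The other windows held a single block of that length each. At 300 tags per kb only the lower of the pair kept a span of over 40 kb, and with joining at 5 kb only the upper did. The lower block began with 10.5 kb from 83808427 to 83818907 at 352.3 ChIP tags per kb and ended with 22.0 kb from 83828115 to 83850107 at 347.3, the widest of all members. Between these lay regions of 216.4 and 209.6 tags per kb, both under the limit of 250 for a dense region. The block thus had a dip of 0.614 times (0.564 to 0.668) with input at 0.927 times (0.644 to 1.31). On its upper side density dropped within 386 bp to 141.3, 0.407 times (0.363 to 0.455). A gap of 11.7 kb from 83852743 to 83864444 followed, the longest between members of this window. The next longest were 8.48 kb from 84161374 to 84169855 and 6.87 kb from 83871106 to 83877980.

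Between the blocks, regions covered 14.5% of the 20 kb above the lower block and 19.4% of the 20 kb below the upper one. A region of 2.21 kb in this stretch, from 83883441 to 83885648, held 124.6 tags per kb. The upper block began at 365.2 tags per kb in the region from 83905836 to 83908470, the densest of the window. That is 2.93 times (2.56 to 3.36) the density of the region of 2.21 kb, which ends 20.2 kb lower, with input at 1.08 times (0.639 to 1.83). Of the widest regions of the upper block, that from 83911418 to 83928516 held 311.7 tags per kb and that from 83928786 to 83941696 held 291.3.

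Among its regions of 2 kb or wider, the upper block ran out as a staircase, down to 153.6 tags per kb, with almost no bare sequence. The 4 dense regions of the block held 365.2, 311.7, 291.3 and 259.9 tags per kb in that order, and the next ones held 191.4, 182.0 and 153.6. Between the first and second dense regions lay a region of 0.98 kb with 213.3 tags per kb and one of 150 bp with 120. Each of the 3 steps between the dense regions had an interval that leaves out 1. So had the step at the upper side of the block, 0.737 times (0.692 to 0.784) across 266 bp, with input at 0.992 times (0.772 to 1.28). Above that side, the step from 191.4 to 182.0 had an interval that includes 1 (0.863 to 1.05), and the step from 182.0 to 153.6 did not (0.766 to 0.931). The fall ended there. The next region of 2 kb or wider rose to 178.5, 1.16 times (1.07 to 1.26), and those after it held 174.6, 166.5 and 210.0. Regions covered 98.9% of the 20 kb below the upper side of the block and 95.5% of the 20 kb above it. A fall in density with coverage this high was not seen at the other sides of blocks, where the outer 20 kb was covered over 14.5% to 85.6%.

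Farther up, the domain held single denser regions again. From 83963954 to 83975491, the least dense of the 11 members of 10 kb or more held 153.6 tags per kb, with a ratio of 10.3 (8.68 to 12.2). The region from 84012222 to 84020955 rose to 243.6, 1.35 times its lower neighbour of 2 kb or wider (1.24 to 1.46). Density then fell to 162.5 in the region from 84021483 to 84025970, 0.667 times (0.612 to 0.726). The region from 84026215 to 84028973 held 269.04, 1.66 times that of the region before it (1.49 to 1.84). The next region of 2 kb or wider, from 84047241 to 84049663, fell back to 139.97. The merged domain that began at 83904905 with a region of 150 bp ended at 84039787 with one of 310 bp.

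**Figure D3:**
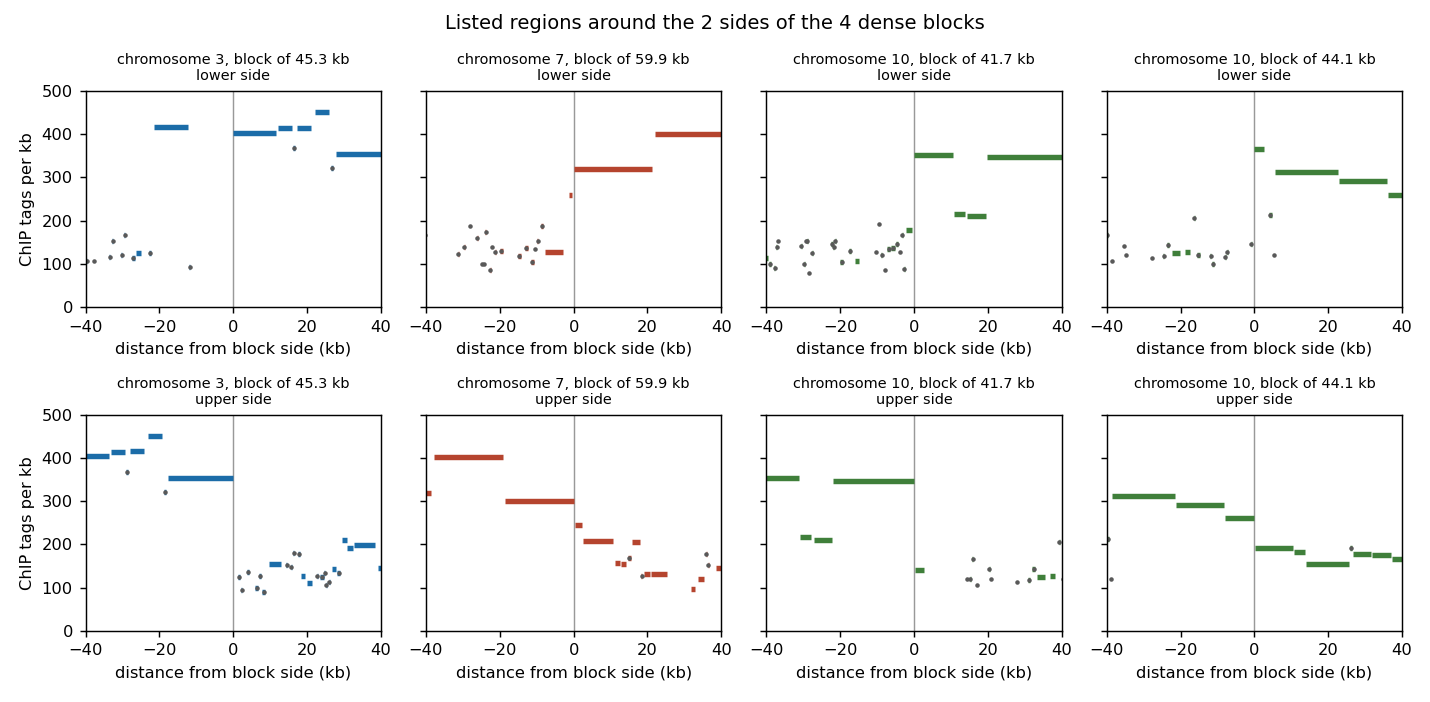
ChIP tags per kb of listed regions within 40 kb of the lower side (top row) and upper side (bottom row) of the 4 blocks of over 40 kb, as bars over each region and grey dots for regions under 1 kb. The upper sides on chromosome 3 and on the lower chromosome 10 block drop to wide regions of 154.0 and 141.3 tags per kb, and the upper side of the last block steps down from 259.9 to 191.4 across a gap of 266 bp.

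The upper part of the chromosome 10 window, above this domain, was marked broadly and at lower density. The longest domain there, merged at 3 kb, ran over 121.8 kb from 84169855 to 84291677 in 62 regions and was covered over 59.6%. It held 166.4 ChIP tags per kb and 17.9 input tags per kb, beside 220.8 and 13.8 in the widest domain of the window, which was covered over 89.8%. Its densest region of 2 kb or wider, from 84274270 to 84281344, held 241.02 tags per kb. Near the end of the field a region of 9.70 kb from 84391668 to 84401367 held 241.9, 1.93 times its lower neighbour (1.74 to 2.14). The lowest of the 46 regions of 2 kb or wider, from 84101640 to 84103834, held 107.1 at a ratio of 4.81 (3.46 to 6.82), close to the fold of 4 that the caller required. Whether these upper domains belong to the presumed Hox B cluster was not tested.

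Consecutive wide regions, which lay 0.223 to 146.5 kb apart, differed in ChIP more often than in input. Between consecutive regions of 2 kb or wider, the 95% interval of the ChIP density ratio left out 1 in 8 of 13 pairs of the chromosome 3 window, 7 of 12 of the chromosome 7 window and 34 of 45 of the chromosome 10 window. For input this held in 6, 3 and 4 pairs. The intervals are not adjusted for the number of pairs, and input numbers are smaller, so their intervals are wider. Pairs were not counted over the rest of the list, so nothing is read from these numbers about the windows. Over all regions of 2 kb or wider, ChIP density ran from 114.4 to 450.3 tags per kb on chromosome 3 (median 188.8), from 126.4 to 400.9 on chromosome 7 (median 148.6) and from 107.1 to 365.2 on chromosome 10 (median 175.6). The median over the list was 169.5.

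**Figure D4:**
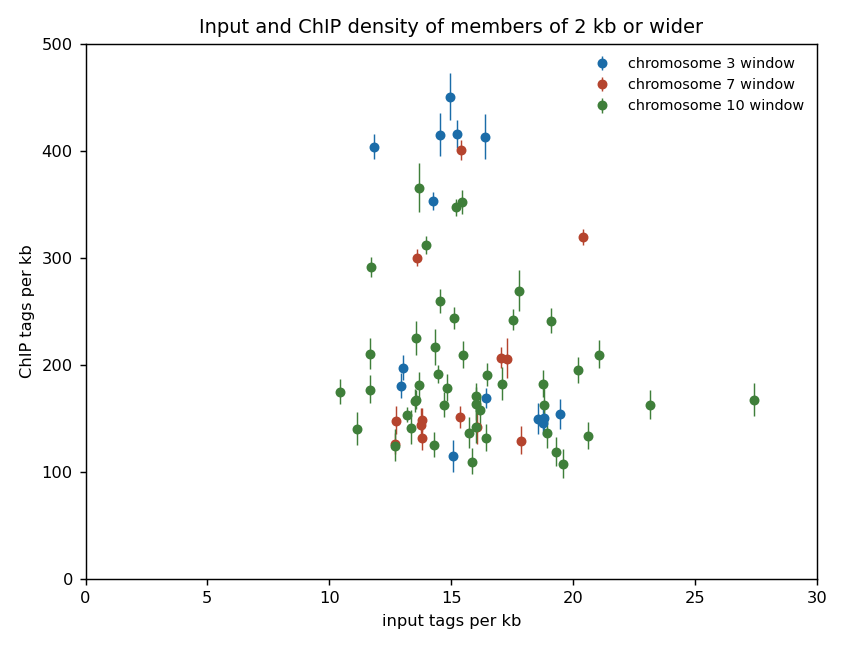
ChIP tags per kb against input tags per kb for the 73 members of 2 kb or wider, coloured by window, with 95% counting intervals for ChIP. Members above 300 ChIP tags per kb lie between 11.8 and 20.4 input tags per kb, inside the range of the other members.

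Listed regions lay close together in all 3 windows. The median gap to the next member was 697 bp on chromosome 3, 760 bp on chromosome 7 and 574 bp on chromosome 10, beside 2410 bp between neighbours over all numbered chromosomes and X. Gaps of 3 kb or less made up 89.7%, 87.2% and 92.4% of the gaps, beside 53.3% over the list. Only gaps between members were counted, and the windows were chosen with the list known, so nothing is read from this closeness. The window limits cut through little of the mark. On chromosome 3, 1 region of 150 bp with 16 ChIP tags, from 68399937 to 68400087, crossed the upper limit and is not a member. The last member there, 5.84 kb below it, spans 150 bp with 17 tags. On chromosome 7 the first non-member above lay 74.3 kb from the last member, and on chromosome 10 it lay 87.7 kb away. The lowest chromosome 10 member starts at 83709828, 51.2 kb above the nearest region outside, and the lowest on chromosome 3 starts at 67951061, 73.1 kb above it.

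Input dropout and clonality were also compared. Of the members, 37 or 5.69% had no input tag, beside 8.00% of the list, whose regions are narrower (median width 150 bp, against 273.5 bp for the members). Of the members of 150 bp or less, which hold 32 of the 37, it was 15.9%, beside 11.8% of regions of that width elsewhere, and none of the 73 regions of 2 kb or wider was among them. The caller's clonality value had a median of 0.89 for the members and 0.97 for the list. The difference depended on width. At 150 bp or less the medians were 0.88 for members and 0.98 for others, and from there to 2 kb 0.955 and 0.96. At 2 to 10 kb both were 0.87, and at 10 kb or more they were 0.89 and 0.86. Members of 10 kb or more ranged from 0.66 to 0.97, and others of that width from 0.5 to 1.44.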

How the data were processed

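The authors deposited 1 list of H3K27me3 regions, called with HOMER findPeaks in region mode (peak size 150 bp, minimum distance 370 bp, at least 14 tags per window and a fold of 4 over input), per the file headers. CASAVA 1.8.2 and Bowtie are named beside HOMER, per the submitters' processing notes, and no source used here names the genome build. The deposited ChIP signal is the tag number scaled to 10000000 tags, and the deposited input signal is in tags, with 0.5 written for 0. The deposited fold is the ratio of scaled ChIP to input tags. The deposited caller score and p-value were not used, and the deposited clonality ratio is given once.

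ChIP tags were recovered from the scaled signal and the header's total of 46826704 (whole within 0.234 tags). Input 0.5 was set to 0. Intervals are 95% exact binomial intervals on ratios of 2 tag numbers and exact Poisson intervals on densities, computed with Python 3.11.15 and scipy 1.17.1, and the scripts were tested on simulated data. The file does not say if its starts count from 0 or 1. The members, the named regions (in each window the 5 widest, the ends of the widest domain, the highest and lowest density at 2 kb or wider, the 3 longest gaps, the outermost members) and all limits were chosen with earlier results of these data known. Other regions are named where a step in density lies.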

Additional observations from a re-analysis of the deposited data

How the results depend on the processing

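No paired analysis was possible because the list pools the libraries, and for the same reason no library could be left out. Among regions whose fold reached the list's median, covered length was 92.9, 129.3 and 268.8 kb in the chromosome 3, 7 and 10 windows, the pooled ratio was 19.4, 14.4 and 13.6, and the widest merged domain spanned 45.3, 94.05 and 104.1 kb, where fewer regions were left to merge. With only regions of 2 kb or wider the ratios were 17.8, 14.5 and 12.7. Dropping regions with no input tag left all 3 ratios inside their intervals. Counting overlapping regions gave 132.6 kb on chromosome 3. Merging at 1 kb gave widest domains of 29.9, 86.6 and 126.2 kb, and merging at 10 kb gave 314.7 kb on chromosome 7 and 547.9 kb on chromosome 10. The widest span thus depends on the merging distance.

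Alternatives for the dense blocks were added after seeing the data. The widest block spanned 66.7 kb on chromosome 3 with joining at 20 kb, when it ranked 2 in the list after a chromosome 2 block of 88.0 kb and that of chromosome 7 ranked 3 instead of 1, 77.95 kb on chromosome 7 at 200 tags per kb, and 41.7 kb on chromosome 10 at 300 tags per kb. Blocks of 40 kb or more in the list went from 11 to 6 at 300 tags per kb and to 7 with joining at 5 kb. Under each of these settings 3 of them lay in the windows. The one lost was the upper chromosome 10 block at 300 tags per kb and the lower one with joining at 5 kb. At 200 tags per kb 4 of 16 did, and with joining at 20 kb 4 of 14.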
